A study of Mus musculus with 6 samples.

Results

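Iron handling genes were followed in mouse bone marrow mesenchymal stem cells (BMSCs) cultured with a low concentration of nickel ion. The 9 genes were matched by symbol in the deposited annotation and joined by gene identifier to the deposited read counts and FPKM values, and all 9 were found among the 54532 genes listed. They take part in iron uptake (Tfrc, Slc11a1, Slc11a2), storage (Fth1, Ftl1), export (Slc40a1, Cp) and haem breakdown (Hmox1, Blvrb). The cells were labelled wild type and were kept in osteogenic medium for 7 days. The labels give its additives as dexamethasone (100 nM), ascorbic acid (50 μg/mL) and β-glycerophosphate (10 mM), whereas the study's methods give a lower dexamethasone concentration. In the Ni group the medium also held 0.1 μM nickel ion, and the control group had vehicle. Each group had 3 libraries, which the labels call independent biological replicates. Mouse strain, age, and how many animals gave the marrow are not given in the sources used here. The comparison asks whether the transcripts of iron handling genes differed between Ni and control cultures.

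Most cells take up iron bound to transferrin through the receptor Tfrc, and Slc11a2 carries the released iron out of the endosome. Macrophages also recover iron from engulfed red cells, where Hmox1 opens the haem ring and Slc11a1 moves metal ions out of the phagosome. Blvrb encodes a biliverdin reductase. Surplus iron is stored inside ferritin, a shell of heavy chains (Fth1) and light chains (Ftl1), or leaves the cell through ferroportin (Slc40a1), after which ferroxidases such as ceruloplasmin (Cp) oxidise it for transferrin. Iron regulatory proteins bind a hairpin in some of these mRNAs, the iron-responsive element, when iron is scarce. Binding near the 5′ end blocks translation, and binding in the 3′ UTR protects the mRNA from decay.

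The element was searched for in the GENCODE M21 transcripts (GRCm38) as the letters CNNNNNCAGTG with 5 paired bases on each side of the loop, G-T pairs allowed, on the transcript strand. This pattern was found in the untranslated regions of 4 of the 9 genes. Of 21901 protein-coding genes, 0.142% held a match in the 5′ UTR, 0.589% in the 3′ UTR and 0.731% in either. The matches are printed to show which of the 9 mRNAs hold this exact pattern, with the bulged C and the CAGTG of the loop in capitals. Those of Fth1 (chr19:9982733-9982759, plus strand), Ftl1 (chr7:45459780-45459806, minus strand) and Slc40a1 (chr1:45925466-45925492, minus strand) lie in the 5′ UTR. The 4 matches of Tfrc lie in its 3′ UTR on the plus strand, at chr16:32631220-32631246, chr16:32631599-32631625, chr16:32631664-32631690 and chr16:32631711-32631737.
Fth1: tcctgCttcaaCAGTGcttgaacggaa
Ftl1: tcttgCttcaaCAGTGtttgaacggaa
Slc40a1: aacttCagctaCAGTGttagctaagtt
Tfrc site 1: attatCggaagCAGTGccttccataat
Tfrc site 2: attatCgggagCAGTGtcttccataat
Tfrc site 3: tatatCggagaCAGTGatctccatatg
Tfrc site 4: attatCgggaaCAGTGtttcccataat
The Fth1 and Ftl1 elements were identical at 25 of 27 bases. No match to these letters was found in the UTRs of Slc11a1, Slc11a2, Cp, Hmox1 or Blvrb, which says only that this pattern is not in those windows. An element with other letters or with an extra unpaired base would be missed, so these 5 mRNAs may still carry one.

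Totals ran from 16101033 to 18642504 counts per library, and 14624 genes passed edgeR's filter on low counts, all 9 iron handling genes among them. Control replicate 3 stood apart from the other 2 controls and lay at the level of the Ni libraries for several of the 9 genes, so values are given with and without it. With all 6 libraries, edgeR's quasi-likelihood test called none of the 14624 genes at an adjusted p under 0.05, and 13.4% had an unadjusted p under 0.05. With 3 libraries against 3, an exact two-sided permutation test cannot give a p under 0.1. RNA was taken from whole cultures, so fewer cells of a type and less RNA per cell cannot be told apart.

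Of the 9 genes, 5 had lower levels in Ni libraries at an unadjusted p under 0.05 in edgeR, and none had higher ones. They were Cp, Slc11a1, Blvrb, Fth1 and Slc11a2, at log2 fold changes from -0.87 to -0.38. Over all genes tested, 5.83% passed the same threshold in the lower direction and 7.59% in the higher. None of the 9 had an adjusted p under 0.05 with all 6 libraries, in limma or in edgeR with its filter on low counts. DESeq2 called Cp alone (adjusted p = 0.0159), and edgeR without the filter called Slc11a1, Blvrb and Slc11a2 (adjusted p = 0.00182, 0.00503 and 0.0425). Over all genes, these fits called 0.993% and 3.97%. The median log2 fold change of the 9 was -0.38, against -0.01 over all genes tested. Tfrc, Ftl1, Slc40a1 and Hmox1 did not pass either threshold. The count of 5 depended on single libraries, as did the share of all genes at an unadjusted p under 0.05. It was 2 (Cp and Blvrb) without control replicate 1 or Ni replicate 1, where the share over all genes was 6.27% and 6.60%. It was 2 (Cp and Tfrc) without control replicate 2, at 5.79% of all genes, and 1 (Cp) without Ni replicate 3, at 6.96%.

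**Figure D1:**
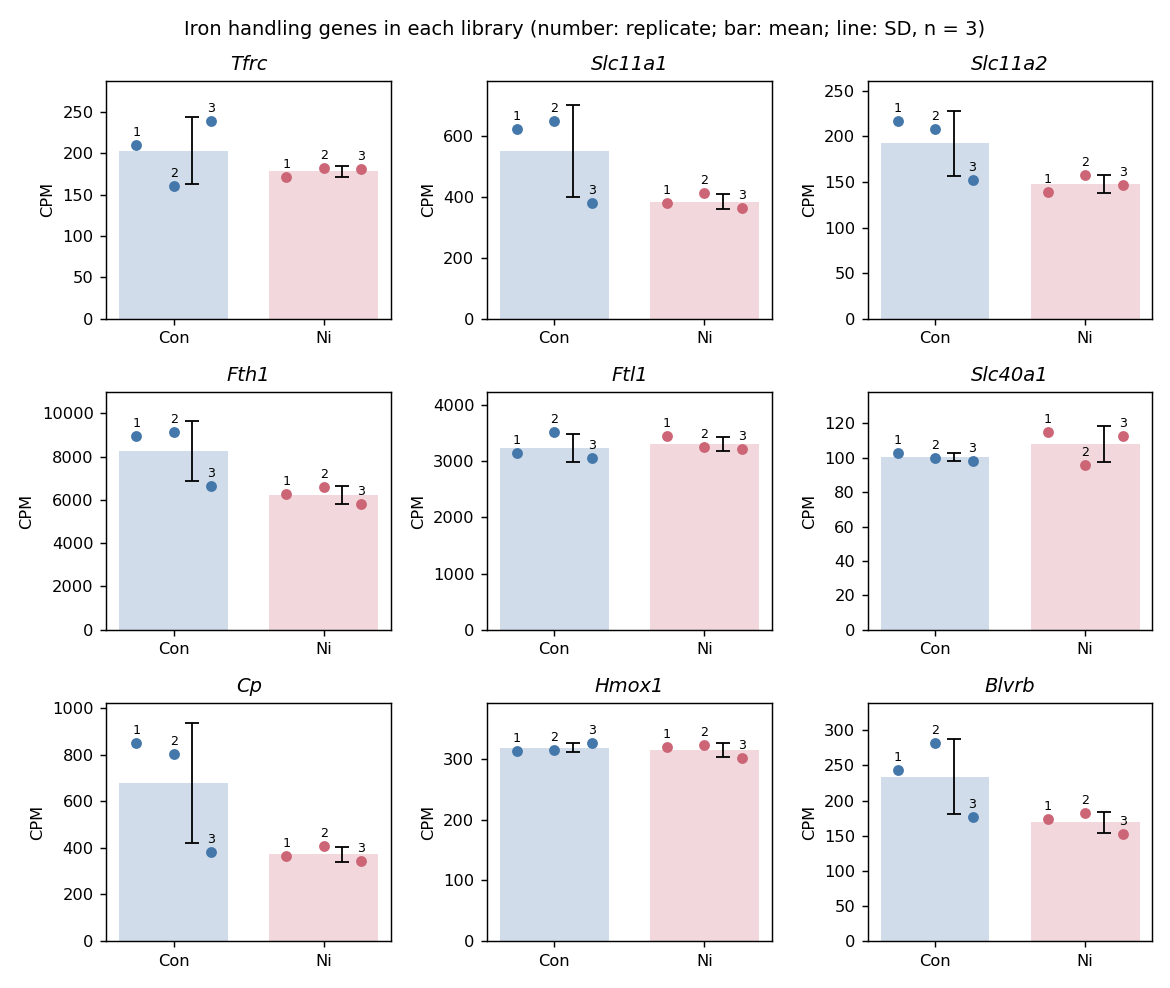
Level of each of the 9 genes in CPM (read counts scaled to library size, with edgeR's TMM factors, y axis starting at 0) in the 3 control and 3 Ni libraries, where points are libraries numbered by replicate, bars are means and lines are SD (n = 3). For Cp, Slc11a1, Blvrb and Slc11a2, control replicate 3 lies within the range of the Ni libraries, while the Hmox1 points of both groups lie between 301 and 326 CPM.

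Among the uptake genes, the transferrin receptor Tfrc (ENSMUSG00000022797, chr16:32608920-32632794) had 210, 160 and 240 CPM in control replicates 1, 2 and 3 and 171, 182 and 181 CPM in Ni replicates 1, 2 and 3. Control replicate 2 was the lowest library and control replicate 3 the highest, with the Ni libraries between them, so the groups overlapped. The means were 203 ± 40.1 CPM in controls and 178 ± 6.22 CPM in Ni libraries (SD, n = 3 each), a log2 fold change of -0.19 (SE 0.14, edgeR adjusted p = 0.575). Control replicate 3 was above the mean of the other controls by 0.38 on the log2 CPM scale, the opposite side from most of the 9 genes.

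The phagosomal metal transporter Slc11a1, also called Nramp1 and a gene of macrophages (ENSMUSG00000026177, chr1:74375195-74386062), had 623, 650 and 378 CPM in controls and 379, 411 and 363 CPM in Ni libraries. Control replicates 1 and 2 lay above every Ni library and control replicate 3 lay inside the Ni range. The means were 550 ± 150 CPM and 384 ± 24.8 CPM (SD, n = 3 each), a log2 fold change of -0.52 (SE 0.19, 95% interval -0.94 to -0.10, edgeR adjusted p = 0.334). The endosomal transporter Slc11a2, also called Dmt1 (ENSMUSG00000023030, chr15:100387898-100425072), had 217, 208 and 152 CPM in controls and 139, 158 and 146 CPM in Ni libraries. The pattern was the same, with control replicate 3 inside the Ni range. Its means of 192 ± 35.4 CPM and 148 ± 9.60 CPM (SD, n = 3 each) gave a log2 fold change of -0.38 (SE 0.14, edgeR adjusted p = 0.323).

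Among the storage genes, the ferritin heavy chain Fth1 (ENSMUSG00000024661, chr19:9982703-9985092), the ferroxidase subunit of the shell, had 8934, 9145 and 6655 CPM in controls and 6282, 6604 and 5793 CPM in Ni libraries. Every Ni library lay below every control, though control replicate 3 was only just above Ni replicate 2. Fth1 was the only one of the 9 genes whose groups did not overlap, and over all genes tested 14.7% did not overlap, 6.71% with every Ni library below every control and 7.97% with every Ni library above. The means were 8244 ± 1381 CPM and 6227 ± 409 CPM (SD, n = 3 each), a log2 fold change of -0.40 (SE 0.16, 95% interval -0.76 to -0.05, edgeR adjusted p = 0.344). The exact two-sided permutation test over the 6 libraries gave p = 0.1, the smallest it can give.

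The ferritin light chain Ftl1 (ENSMUSG00000050708, chr7:45457944-45459884), which helps the iron core form, had 3147, 3520 and 3050 CPM in controls and 3444, 3243 and 3209 CPM in Ni libraries. The lowest and the highest library were both controls. The means were 3239 ± 248 CPM and 3299 ± 127 CPM (SD, n = 3 each), and the log2 fold change of 0.03 (SE 0.12, 95% interval -0.25 to 0.30, edgeR adjusted p = 0.950) turned to -0.01 without control replicate 3. The counts of Ftl1 are less certain than those of the other 8 genes. Of its 1427 stretches of 50 bases, 58.4% also occur in 17 other annotated genes, and 34.6% of its exon bases lie under another gene, whereas Fth1 shared 1.59% of its stretches. The copy Ftl1-ps1 held 1044, 931 and 826 counts in controls and 1070, 960 and 933 in Ni libraries, so reads had been assigned to it in every library.

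The chain ratio was taken within each library as Fth1 FPKM over Ftl1 FPKM, FPKM being the authors' value corrected for gene length and library size. It was 4.39, 4.02 and 3.38 in controls and 2.82, 3.15 and 2.79 in Ni libraries. Every Ni library was below every control, with control replicate 3 the lowest control. The mean ratio was 3.93 ± 0.514 in controls and 2.92 ± 0.199 in Ni libraries (SD, n = 3 each), and the exact two-sided permutation test gave p = 0.1, again the smallest it can give. The difference in log2 ratio was -0.42 and stayed between -0.53 and -0.34 when each library was left out in turn. The size of the ratio rests on the deposited Fth1 length of 866 bases, since the exons of GENCODE M21 cover 3469 bases, but the difference between groups does not. Together the chains took 1.22%, 1.25% and 0.976% of all counts in controls and 0.961%, 0.985% and 0.906% in Ni libraries.

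**Figure D2:**
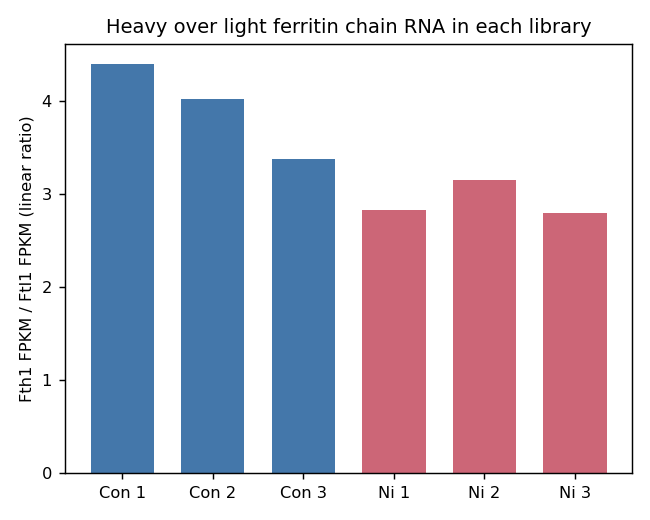
Ratio of Fth1 FPKM to Ftl1 FPKM (y axis) with 1 bar per library, controls in blue and Ni libraries in red. The 3 Ni libraries sit between 2.79 and 3.15, below the 3 controls at 3.38 to 4.39.

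Among the export genes, the iron exporter Slc40a1 (ENSMUSG00000025993, chr1:45908068-45926523) had 102.8, 100.1 and 98.0 CPM in controls and 115, 95.9 and 113 CPM in Ni libraries. The controls were close together and Ni replicate 2 lay below them, so the groups overlapped. The means were 100.3 ± 2.44 CPM and 108 ± 10.5 CPM (SD, n = 3 each), a log2 fold change of 0.11 (SE 0.10, edgeR adjusted p = 0.672). The ferroxidase Cp (ENSMUSG00000003617, chr3:19957054-20009145) had the largest difference of the 9 genes, with 852, 803 and 384 CPM in controls and 363, 410 and 343 CPM in Ni libraries. Control replicates 1 and 2 were high and the other 4 libraries lay together, with control replicate 3 inside the Ni range. The means were 680 ± 257 CPM and 372 ± 34.2 CPM (SD, n = 3 each), a log2 fold change of -0.87 (SE 0.27, 95% interval -1.50 to -0.24, edgeR adjusted p = 0.308).

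Among the haem breakdown genes, haem oxygenase Hmox1 (ENSMUSG00000005413, chr8:75093621-75100589), which also responds to oxidative stress, was nearly level, at 313, 315 and 326 CPM in controls and 320, 322 and 301 CPM in Ni libraries. The highest library was a control, the lowest a Ni library, and the groups overlapped. The means were 318 ± 7.17 CPM and 314 ± 11.6 CPM (SD, n = 3 each), a log2 fold change of -0.02 (SE 0.09, edgeR adjusted p = 0.957). The 95% interval of the fold ran from 0.854 to 1.14. Biliverdin reductase Blvrb (ENSMUSG00000040466, chr7:27447978-27466144) had 243, 282 and 177 CPM in controls and 173, 182 and 152 CPM in Ni libraries. Control replicate 3 again lay inside the Ni range. The means were 234 ± 53.3 CPM and 169 ± 15.3 CPM (SD, n = 3 each), a log2 fold change of -0.47 (SE 0.16, edgeR adjusted p = 0.318).

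For the 5 lower genes, control replicate 3 was below the mean of control replicates 1 and 2 by 0.44 (Fth1) to 1.11 (Cp) on the log2 CPM scale, and within 0.10 of the mean of the Ni libraries. Without control replicate 3, edgeR called 5 of the 9 genes at an adjusted p under 0.05, all lower in Ni libraries, where 15.2% of the 15044 genes tested were called, 6.49% as lower and 8.69% as higher. That library was set aside with its values for these genes known, so its removal widens their differences by construction, and the fits that left out any of the other 5 libraries called none of the 9. The 5 genes were Cp at a log2 fold change of -1.15 (adjusted p = 4.28e-05), Slc11a1 at -0.72 (0.000264), Blvrb at -0.63 (0.00147), Slc11a2 at -0.52 (0.00206) and Fth1 at -0.53 (0.00221). Their groups then did not overlap, which held for 43.1% of all genes tested without that library, 20.8% with every Ni library below. Hmox1 stayed at 0.01 (edgeR adjusted p = 0.975), Ftl1 at -0.01 (0.961), Slc40a1 at 0.09 (0.607) and Tfrc at -0.05 (0.827). With control replicate 2 left out instead, 19.6% of all genes tested had groups that did not overlap. Besides Fth1, these then included Tfrc, lower in Ni libraries at a log2 fold change of -0.34 (edgeR adjusted p = 0.815), and Ftl1, higher at 0.09.

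**Figure D3:**
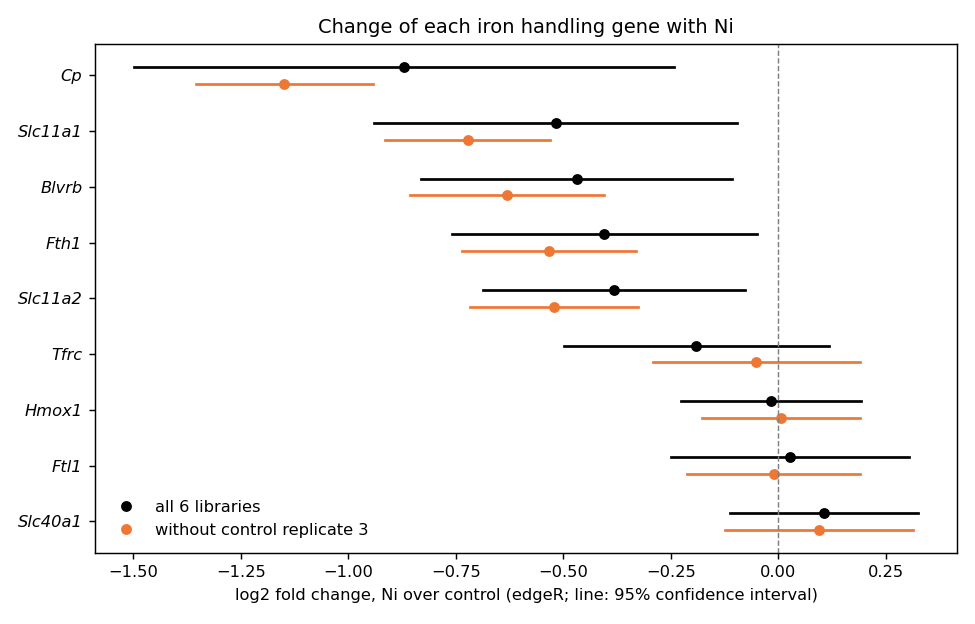
Log2 fold change of each of the 9 genes, Ni over control, with its 95% confidence interval (edgeR), for all 6 libraries in black and without control replicate 3 in orange. The intervals of Cp, Slc11a1, Blvrb, Fth1 and Slc11a2 lie below 0 in both fits, and those of Tfrc, Hmox1, Ftl1 and Slc40a1 cross 0.

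Levels were compared between genes on the FPKM scale, which is per length. In controls the mean levels were 9448 FPKM for Fth1, 2399 for Ftl1, 180.3 for Hmox1, 147 for Slc11a1, 83.4 for Blvrb, 70.5 for Cp, 32.6 for Tfrc, 30.04 for Slc11a2 and 11.1 for Slc40a1. The ferritin chains stood far above the transporters, and the exporter Slc40a1 was the lowest. The ranges of Blvrb and Cp overlapped in controls, as did those of Tfrc and Slc11a2, so neither pair can be ordered, while the other neighbours did not overlap. The place of Fth1 above Ftl1 rests on the deposited Fth1 length of 866 bases, where the exons of GENCODE M21 cover 3469. The order of the ferritin chains is therefore not settled in either group. In Ni libraries the order was the same, at 7147, 2447, 179, 103, 60.4, 38.6, 28.6, 23.1 and 11.9 FPKM, and no neighbours overlapped.

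Across the 6 libraries, the log2 CPM of Slc11a1, Slc11a2, Fth1, Cp and Blvrb moved together, with Pearson's r from 0.927 (Slc11a2 with Blvrb) to 0.994 (Slc11a1 with Cp). These values are descriptions over 6 libraries that share the group difference and the position of control replicate 3. Hmox1 had an r between -0.11 and 0.09 with those 5 genes. The 3 genes most like Hmox1 by r over the 6 libraries, of 9111 candidates, were Ube2g2 (0.984), Lrp11 (0.977) and Fzd8 (0.974). Those 3 were picked as the highest of all candidates over only 6 libraries, so their r does not show shared regulation. Tfrc and Ftl1 ran opposite to each other, at r = -0.92.

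Of 91 other genes of iron and haem metabolism, 81 were tested, 7 were higher and 6 lower in Ni libraries at an unadjusted p under 0.05 in edgeR, and none passed after adjustment. The shares over all genes tested were 7.59% and 5.83%, and the median log2 fold change of the 81 was -0.00. The adjusted p of the 13 lay between 0.241 and 0.363 in edgeR, and the values below are log2 fold changes. The 2 genes of each list with the highest CPM, averaged over all 6 libraries and not corrected for gene length, are also given. In the uptake and reduction list, of 13 tested, the receptors Tfr2 (0.31) and Slc22a17 (0.61) and the metalloreductase Steap2 (0.44) were higher in the edgeR fit. The metalloreductase Steap4 (-0.64), the metal transporter Slc39a8 (-0.40) and the siderophore binder Lcn2 (-1.02) were lower in that fit. The 2 of highest mean CPM were the metal transporter Slc39a14 at 0.05 and the mitochondrial iron importer Slc25a37 at -0.02.

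In the storage and chaperone list, of 5 tested, Pcbp4 was higher at 0.56, while the iron chaperones Pcbp1 and Pcbp2 were at 0.00 and 0.01. In the export and systemic control list, of 6 tested, the ferroxidase Heph, a membrane-bound relative of Cp, was higher at 0.68. Bmp6, a ligand that raises hepcidin in the liver, was lower at -1.35, at a low level and in groups that overlapped. It had 57, 61 and 19 counts in controls and 24, 20 and 13 counts in Ni libraries. App and Hfe, the 2 of highest mean CPM, were both at -0.00. The hepcidin genes Hamp and Hamp2 were at 0 counts in all 6 libraries, as were Hfe2, Hephl1, Ftmt and Ltf.

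In the iron sensing list none of 8 passed the unadjusted threshold in edgeR, which held for the iron regulatory proteins Aco1 (-0.06) and Ireb2 (-0.08) and for Herc2 (-0.15) and Skp1a (0.02), the 2 of highest mean CPM. In the haem breakdown and transport list, of 12 tested, the haemoglobin-binding haptoglobin gene Hp was lower, with 698 ± 71.5 CPM in controls and 492 ± 48.8 CPM in Ni libraries (SD, n = 3 each, log2 fold change -0.50, edgeR adjusted p = 0.241). The transporter Abcg2 was higher at 0.47, and the haem-haemopexin receptor Lrp1 was at 0.28. The second haem oxygenase gene Hmox2 (-0.15) and the other biliverdin reductase gene Blvra (-0.23) did not pass.

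In the haem synthesis list none of 9 passed, and Tspo and Fech, the 2 of highest mean CPM, were at -0.06 and 0.18. Alas1, the first enzyme of the pathway, was at -0.22. In the iron-sulphur assembly list, of 18 tested, Fam96b (also called Ciao2b) was lower at -0.33, and Hspa9 and Mms19, the 2 of highest mean CPM, were at 0.03 and -0.15. Among 10 regulators of Hmox1 transcription, Nr1d1 was higher at 0.48. Spi1, a myeloid transcription factor, and Hif1a, the 2 of highest mean CPM, were at -0.44 and 0.21. Nfe2l2, the regulator of the oxidative stress response, was at -0.03. Without control replicate 3, 7 of 82 tested genes of these lists were higher and 6 lower at an edgeR adjusted p under 0.05, beside 8.69% and 6.49% of all genes tested. The higher genes were then Lrp1, Pcbp4, Steap2, Abcg2, Nr1d1, Heph and Steap1, and the lower ones Hp, Spi1, Blvra, Steap4, Lcn2 and Bmp6.

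**Figure D4:**
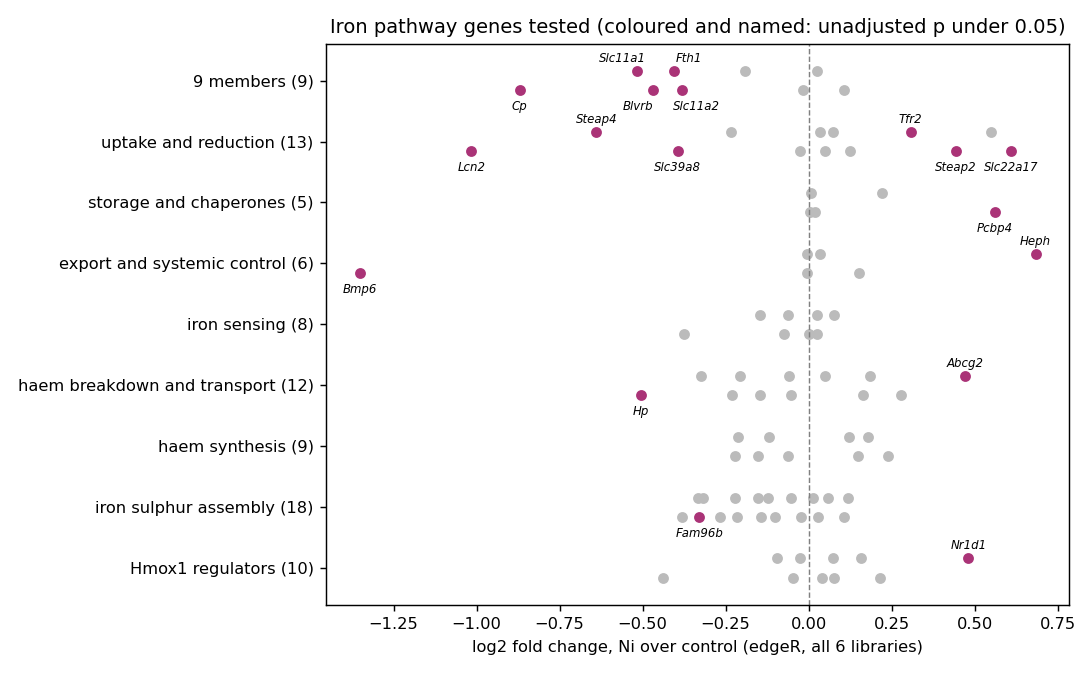
Log2 fold change, Ni over control (x axis, edgeR, all 6 libraries), of the 9 genes and of the tested genes of each pathway list, with 1 point per gene. Genes with an unadjusted p under 0.05 are coloured and named, 5 of the 9 members on the lower side and 7 higher and 6 lower among the 81 others.

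Markers of other cell types moved beside these genes, and their part in the results was not tested. Summed macrophage markers lay at 29740 to 35069 CPM in controls, highest in control replicate 3, and at 29670 to 30453 CPM in Ni libraries. All 22 were tested and none was at 0. Lyz2 alone held 9616 to 15097 CPM, its highest value in control replicate 3. Without Lyz2 the sums were 19411, 21277 and 19971 CPM in controls and 18265, 18869 and 17480 CPM in Ni libraries, with every Ni library below every control. The sums of the full list overlapped, and Lyz2 was left out after values were seen. The next highest marker by mean CPM, Adgre1, had 3729, 3781 and 2553 CPM in controls and 2793, 2342 and 2753 CPM in Ni libraries. The separation is therefore given for this choice of genes only. At an unadjusted p under 0.05 in edgeR, Itgam, Marco, Tyrobp and Ptprc were lower and Vsig4 was higher. Over all genes tested, 5.83% were lower and 7.59% higher at that threshold. The summed osteoclast markers were 1211, 1416 and 724 CPM in controls and 745, 764 and 686 CPM in Ni libraries, and control replicate 3 was again at the Ni level. Of 5 tested, Acp5 (-0.90) and Mmp9 (-0.83) were lower at an unadjusted p under 0.05 in edgeR, and Ctsk (0.62), Atp6v0d2 (0.24) and Nfatc1 (0.05) did not pass, with a median of 0.05. Acp5 made up most of the sum, and without it the sums were 198, 227 and 307 CPM in controls and 264, 258 and 271 CPM in Ni libraries, which overlapped. Among markers of iron-recycling macrophages, Spic had 34.0, 38.1 and 8.22 CPM in controls and 7.00, 10.8 and 3.92 CPM in Ni libraries (log2 fold change -1.89, edgeR adjusted p = 0.338), in groups that overlapped. Of the other 5 genes of that list none passed the unadjusted threshold in edgeR, with the haemoglobin scavenger receptor Cd163 at -0.06, Vcam1 at -0.18 and Timd4 at 0.79. Every Ni library lay above every control for Timd4, as for 7.97% of all genes tested. Its level was very low, at 0.80 ± 0.15 CPM in controls and 1.38 ± 0.38 CPM in Ni libraries (SD, n = 3 each). Control replicate 1 and Ni replicate 2 both held 17 counts.

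All 10 osteoblast markers were higher in Ni libraries at an unadjusted p under 0.05 in edgeR, beside 7.59% of all genes tested, and none passed after adjustment. Their sums were 10361, 10356 and 20480 CPM in controls and 30349, 22819 and 29927 CPM in Ni libraries. Control replicate 3 lay between the other controls and the Ni libraries. The 10 stromal markers, which check the labelled cell type, were all above the filter. Their sums were 7383 to 10122 CPM in controls and 11469 to 13487 CPM in Ni libraries, below the macrophage sum in every library. The macrophage list holds 22 genes, osteoblast markers were summed apart, and CPM is not corrected for gene length. The sums of these lists therefore do not compare amounts of cells. Col1a2, Col3a1 and Ly6a were higher and Cxcl12 lower at an unadjusted p under 0.05 in edgeR. Col1a2 alone held 4286 ± 1226 CPM in controls and 8413 ± 1126 CPM in Ni libraries (SD, n = 3 each). By log2 fold change, Pdgfra (0.07), Lepr (-0.13), Thy1 (-0.07), Pdgfrb (0.21), Eng (0.25) and Nt5e (0.79) did not pass. Of 10 erythroid markers 9 were matched, and the haemoglobin genes Hba-a1, Hba-a2, Hbb-bs and Hbb-bt and the band 3 gene Slc4a1 were listed at 0 in all libraries. Summed neutrophil markers stayed between 1.53 and 3.24 CPM. Summed endothelial markers were 52.0 to 74.6 CPM in controls and 46.0 to 49.6 CPM in Ni libraries. Pecam1 held 42.5 ± 14.3 CPM of this in controls and 27.1 ± 4.70 CPM in Ni libraries (SD, n = 3 each). Of 6 tested, it alone passed the unadjusted threshold in edgeR, lower at -0.65. Cdh5 (-0.19), Tek (-0.67), Vwf (-0.19), Kdr (0.09) and Emcn (0.58) did not pass. The proliferation sums of 329 to 438 CPM in controls and 409 to 474 CPM in Ni libraries overlapped, as did the adipocyte sums of 837 to 1167 and 817 to 930 CPM, with Birc5 higher and Lpl lower at an unadjusted p under 0.05 in edgeR.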

How the data were processed

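Read counts per gene and FPKM of 3 control and 3 Ni RNA-seq libraries were analysed. The authors deposited whole-number counts without normalization, and FPKM values that equal the deposited counts divided by gene length and 1 factor per library (largest relative deviation 1.68e-08). The build is GRCm38, per the submitters' processing notes, and the aligner, counter, annotation release and strand setting are not given in the sources used here. Deposited coordinates equal those of GENCODE M21 for 8 of 9 members. The kit is NEBNext Ultra, so genes overlapping on opposite strands cannot be told apart.

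Counts were filtered (filterByExpr), scaled by TMM and tested with the robust quasi-likelihood test of edgeR 4.0.16 (R 4.3.3) over all genes, with Benjamini-Hochberg adjustment and a threshold of 0.05. The fits were tested on simulated data. CPM are TMM-scaled, and log2 CPM for separation and correlation used a prior count of 2. Alternatives were DESeq2 1.42.0, limma 3.58.1 on log2(FPKM + 1) and log2(FPKM + 0.1), other scalings and filters, a replicate block, and each library left out. Within groups, every pair of libraries differed beyond counting noise (chi-square over its degrees of freedom from 4.56 to 47.8). P-values measure the spread between these libraries only.

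All 9 members are named, with the pathway genes at an unadjusted p under 0.05, the 2 of highest mean CPM of each pathway list, and marker genes whose values touch a member. Aco1, Ireb2, Hmox2, Blvra, Alas1, Nfe2l2, the genes at 0 and the marker genes named by their p were added after values were seen. The same holds for the marker sums without Lyz2 or Acp5, the levels of Adgre1, Col1a2 and Pecam1, and the stromal and endothelial markers that did not pass. Members and lists were chosen with earlier results of these data known.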

Additional observations from a re-analysis of the deposited data

How the results depend on the processing

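Over 15 alternatives, the log2 fold changes of Cp, Slc11a1, Blvrb, Fth1, Slc11a2, Tfrc and Slc40a1 kept their direction. Leaving out 1 library at a time, the median of the 9 genes ran from -0.52 to -0.28, the number at an unadjusted p under 0.05 from 1 to 5, the number at an adjusted p under 0.05 from 0 to 5, the number with separate groups from 1 to 5, and the pathway genes at an unadjusted p under 0.05 from 6 to 26. Over all genes tested, these fits gave 5.79% to 27.4% at an unadjusted p under 0.05, 0% to 15.2% after adjustment and 19.6% to 43.1% with separate groups. Over the same fits Ftl1 ran from -0.0106 to 0.0906 and Hmox1 from -0.033 to 0.014. Ftl1 turned to -0.0106 (without control replicate 3) and -0.0048 (without Ni replicate 1), and Hmox1 turned to 0.0062 (without control replicate 3) and 0.014 (without Ni replicate 3). The adjusted calls numbered 1 by DESeq2 (Cp) and 3 without the filter on low counts (Slc11a1, Slc11a2 and Blvrb), and limma without a filter gave 3 of the 9 at an unadjusted p under 0.05 (6.97% of all genes). Over all genes, DESeq2 called 257 (0.993%), edgeR without the filter 1027 (3.97%), and edgeR with the replicate block 315 (2.15%) at an adjusted p under 0.05. With the replicate block, 5 of the 9 genes had an unadjusted p under 0.05 (18.9% of all genes), none was called after adjustment, and 21 pathway genes against 13 passed the unadjusted threshold. Deviations from the group means correlated at 0.01, 0.26 and 0.14 between libraries of equal number, and these numbers were not treated as pairs. The cause of these changes was not tested. The lowest value of the 9 genes was 95.9 CPM, so the filters on low counts removed none of them.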
